A study of Rattus norvegicus with 4 samples.

Results

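The genes examined here are those of antigen presentation and of interferon signalling in the hippocampus of neonatal rats. They were chosen by symbol among the rows that carry a gene ID: every RT1 gene (the rat major histocompatibility complex, or MHC), every Ifit, Ifitm, Irf, Oas, Gbp and Stat gene, and B2m, Cd74, Tap1, Tap2, Tapbp, Psmb8, Psmb9, Psmb10, Isg15, Mx1, Mx2, Bst2, Ifnar1, Ifnar2 and Ifngr1. The rule found 85 of 17445 rows, and no row was found for Ifnar2 or Stat4. The values come from RNA-seq of Wistar pups on postnatal day 1, with 1 library for each of 4 groups: male vehicle control, male BPA, female vehicle control and female BPA. Each library was a pool of 3 hippocampi. BPA, or bisphenol A, is a monomer of polycarbonate plastic with oestrogen-like activity, and it was given to the dams daily at 5000 µg/kg of body weight from gestation day 1 until birth, while control dams received the vehicle. The study asks whether the offspring respond to this exposure and whether the sexes differ. No group has a replicate library, so differences within a sex are descriptions of 1 library against another. Values are FPKM, which count sequenced fragments relative to the length of a gene and the depth of its library, and 4 values in a row are given in the order male vehicle, male BPA, female vehicle and female BPA.

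Nearly every cell shows peptides from its own proteins on MHC class I molecules. Induced subunits of the proteasome (Psmb8, Psmb9 and Psmb10) cut the peptides, the Tap1 and Tap2 pump carries them into the endoplasmic reticulum, tapasin (Tapbp) holds the class I heavy chain at the pump, and B2m is the light chain that completes the molecule. Interferons bind the receptor chains Ifnar1 or Ifngr1, Stat and Irf factors carry the signal to the nucleus, and effectors such as the Ifitm, Oas, Mx and Gbp proteins restrict viruses. In the brain these genes are expressed at low levels unless interferon is present, and MHC class I is also known for roles at developing synapses.

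The promoters of the peptide supply genes are shown first, because Tapbp and Psmb9 had the widest opposite differences between the sexes, Tap1 is the neighbour of Psmb9, and B2m is the most abundant member. The sequences are RefSeq sequences of the assembly GRCr8 and reach from 250 bases before the start to the base before it, 5′ to 3′ on the strand of the gene. The submitters' processing notes name rn6, another build, so these coordinates place the sequences only. Capitals mark each match, on either strand, to GAAA followed by any 2 bases and a second GAAA, which is the core of the interferon-stimulated response element.
Tap1: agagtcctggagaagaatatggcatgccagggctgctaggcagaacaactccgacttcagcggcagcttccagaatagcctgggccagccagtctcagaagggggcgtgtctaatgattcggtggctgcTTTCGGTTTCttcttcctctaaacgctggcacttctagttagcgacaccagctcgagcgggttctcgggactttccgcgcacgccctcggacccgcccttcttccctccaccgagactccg
Psmb9: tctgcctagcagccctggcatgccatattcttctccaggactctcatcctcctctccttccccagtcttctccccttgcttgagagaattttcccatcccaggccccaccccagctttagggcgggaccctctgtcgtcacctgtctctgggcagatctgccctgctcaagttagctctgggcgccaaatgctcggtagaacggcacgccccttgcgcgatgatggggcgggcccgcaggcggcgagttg
Tapbp: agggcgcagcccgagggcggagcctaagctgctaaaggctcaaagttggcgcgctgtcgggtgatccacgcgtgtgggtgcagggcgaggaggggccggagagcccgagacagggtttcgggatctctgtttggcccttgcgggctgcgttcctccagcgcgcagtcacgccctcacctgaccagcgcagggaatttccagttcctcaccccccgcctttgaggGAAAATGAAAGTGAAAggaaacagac
B2m: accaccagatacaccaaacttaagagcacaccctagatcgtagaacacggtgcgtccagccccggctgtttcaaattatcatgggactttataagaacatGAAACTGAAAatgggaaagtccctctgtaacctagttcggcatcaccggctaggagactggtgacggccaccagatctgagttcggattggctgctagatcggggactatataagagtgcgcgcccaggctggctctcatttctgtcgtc
These stretches lie at chr20:4668544-4668793 on the minus strand (Tap1), chr20:4668750-4668999 on the plus strand (Psmb9), chr20:4967878-4968127 on the minus strand (Tapbp) and chr3:129549080-129549329 on the plus strand (B2m). Tap1 and Psmb9 are read away from each other with 456 bases between their starts, and their printed stretches share 44 bases. The Tapbp stretch holds a pair of overlapping matches close to the start, from base -26 to -17 and from -20 to -11 with the start counted as 0. The Tap1 match lies at -121 to -112 and the B2m match at -150 to -141, and no match stands in the letters printed for Psmb9. Over windows from 250 bases before to 50 bases after the start, this motif was found in 21 of the 68 members that have a promoter in the table (30.9%) and in 1034 of all 27457 promoters (3.77%). A second motif, TTCNNNGAA, the gamma-activated site bound by Stat factors, was searched on both strands and was found in 9 of 68 members (13.2%, among them Irf1, Irf8 and Irf9) and in 2382 of all promoters (8.68%). The families hold near copies of one gene, such as the Oas1 genes, so members are not independent examples, and a match is a run of letters and no proof of binding. Of the 85 members, 82 were found in this table by gene ID with the same symbol, and 39 of them lie on chromosome 20, which carries the rat MHC.

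The depth of the libraries was estimated from the steps between low values as 8638000 to 8926000 fragments, at which 1 FPKM on a gene of 1 kb stands for 8.14 to 8.26 fragments. Intervals from this depth cover counting error only, since fragments without molecular identifiers are not independent molecules. The tissue label was checked against markers: Rbfox3, the mature neuron marker NeuN, was at 34.69 to 37.7 FPKM, and the pyramidal neuron gene Neurod6 was at 135.01 FPKM or more in every library. Markers of cells other than neurons differed between the libraries. The 7 markers of meninges and fibroblasts summed to 63.94, 47.79, 140.1 and 55.61 FPKM, and the 5 of border macrophages to 4.49, 5.65, 12.1 and 5.82 FPKM, so that the female vehicle library stood apart in both. The 7 choroid plexus markers ranged from 9.49 FPKM in female vehicle to 706.81 in male BPA, nearly all of it Ttr (256.46, 689.51, 3.96 and 42.39 FPKM), and the other 6 summed to 9.62, 17.3, 5.53 and 3.24 FPKM, lowest in female BPA. The 12 microglial markers, all listed in every library, summed to 57.51, 66.9, 68.75 and 59.5 FPKM, and of 11 markers of T, B and myeloid blood cells 6 were listed and 5, among them Cd3e, Cd3d, Cd79a and Ms4a1, had no row.

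Antigen presentation and interferon genes were mostly expressed at low levels. A mean of at least 1 FPKM over the 4 libraries, the minimum for testing, was reached by 38 members, and their median was 2.13 FPKM against 10.6 FPKM over all 13542 rows tested. B2m (gene ID 24223) was the highest at 40.42, 41.01, 48.25 and 49.06 FPKM, and the type I interferon receptor chain Ifnar1 (gene ID 288264) followed at 35.95, 37.04, 36.36 and 41.51 FPKM. The other 47 members never exceeded 1.89 FPKM or 30 fragments in a library, with a median of 2 fragments, and were not tested. In males the counting interval of the ratio of BPA to vehicle lay off 1 in 2 of them, RT1-EC2 (1.89 and 0.76 FPKM) and RT1-CE5 (0 and 15 fragments), and in females in 2, RT1-T24-2 (0.78 and 0.23 FPKM) and Oasl (0.72 and 0.12 FPKM). Of all members, 77 were listed for both sexes, 2 for males alone (RT1-T24-1 and RT1-CE2) and 6 for females alone (RT1-S2, RT1-CE6, RT1-M4, RT1-M6-2, RT1-Da and RT1-Db2), each of these 8 at 0.25 FPKM or less. In 23 members some library stood at the lowest listed value of 0.01 FPKM. Summed over members, the libraries held 247.85, 246.24, 266.48 and 242.97 FPKM, which stands for 5218, 5125, 5372 and 5157 fragments.

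**Figure D1:**
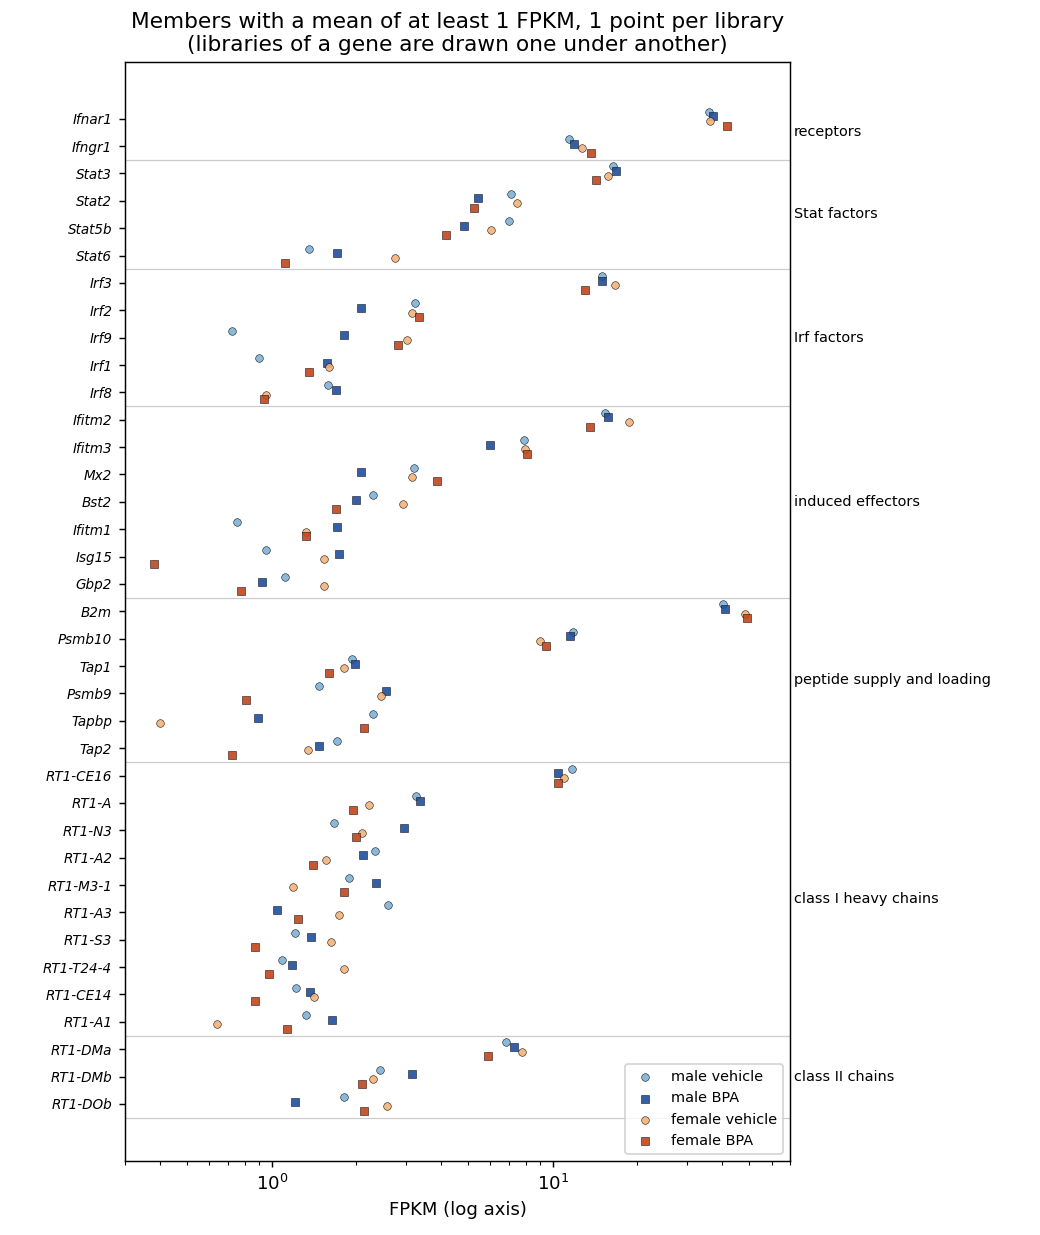
Each row is 1 of 37 members with a mean of at least 1 FPKM, grouped by role, and each point is the FPKM of 1 library on a log axis (circles vehicle, squares BPA, blue male, orange and red female). B2m and Ifnar1 lie between 35.95 and 49.06 FPKM with close points, while Tapbp, Isg15 and Irf9, at 3.02 FPKM or less, have the widest spread on this axis.

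The receptors were among the most abundant members. Ifnar1 stood for 1476 to 1712 fragments and its female BPA value was above the other three. It was the single member of the 38 tested whose BPA libraries both lay above both vehicle libraries. Ifngr1, the ligand-binding chain of the interferon gamma receptor, was at 11.43, 11.89, 12.70 and 13.66 FPKM, and both female values were above both male values. The difference between BPA and vehicle on log2(FPKM + 1) was 0.04 in males and 0.19 in females for Ifnar1, and 0.05 and 0.10 for Ifngr1. The female ratio of Ifnar1 had a counting interval of 1.06 to 1.22 (95%, exact binomial on the share of fragments), and its male interval of 0.959 to 1.11 held 1.

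Ranked by whichever sex differed less, Stat5b and Stat2 were the members in which the treatments lay furthest apart in one direction. Stat5b (gene ID 25126), which carries growth hormone, prolactin and cytokine signals, was at 7.01, 4.81, 6.02 and 4.18 FPKM, from 264, 181, 221 and 156 fragments. Stat2 (gene ID 288774), a partner of Irf9 in the type I interferon complex, was at 7.12, 5.40, 7.43 and 5.25 FPKM, from 215, 163, 219 and 157 fragments. In both genes the BPA values lay below both vehicle values. The ratio of BPA to vehicle was 0.685 (counting interval 0.563 to 0.830) in males and 0.695 (0.562 to 0.857) in females for Stat5b. For Stat2 it was 0.757 (0.614 to 0.933) in males and 0.706 (0.571 to 0.870) in females. Stat3, the most abundant of the family and a mediator of gp130 cytokines, was at 16.39, 16.80, 15.73 and 14.27 FPKM. Stat6, which acts after interleukin 4, was at 1.36, 1.71, 2.74 and 1.11 FPKM, with the female vehicle value on top and female BPA lowest. Stat5a stayed at or under 0.33 FPKM. In this bulk tissue, fewer cells of a type and less RNA per cell cannot be told apart.

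Among the Irf factors, Irf3, which responds to viral nucleic acid before any interferon is made, was the highest at 14.96, 14.97, 16.65 and 12.96 FPKM. Irf2, an antagonist of Irf1, was at 3.23, 2.07, 3.15 and 3.34 FPKM, with male BPA below the rest. Irf9 (gene ID 305896), the DNA-binding partner of Stat2, was at 0.72, 1.81, 3.02 and 2.81 FPKM from 10, 25, 41 and 39 fragments, with male vehicle lowest and both females above both males. Irf1, an activator of MHC class I genes, was at 0.90, 1.57, 1.60 and 1.36 FPKM, and Irf8, a factor of microglia and other myeloid cells, at 1.59, 1.69, 0.95 and 0.94 FPKM. Irf8 split by sex and not by treatment. Irf5 reached 1.43 FPKM in male BPA with a mean just under the minimum, while Irf7, the amplifier of type I interferon, was at 0.24 FPKM or less and Irf4 at 0.10 or less.

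The interferon-induced effectors were led by the Ifitm genes, whose small membrane proteins block virus entry. Ifitm2 was at 15.29, 15.66, 18.62 and 13.55 FPKM and Ifitm3 at 7.88, 5.97, 7.93 and 8.12 FPKM. Mx2, a dynamin-like antiviral GTPase, was at 3.20, 2.07, 3.15 and 3.87 FPKM, with male BPA below the other libraries. Bst2, which tethers budding virus to the cell, was at 2.29, 2.0, 2.93 and 1.69 FPKM, and the guanylate-binding protein gene Gbp2 at 1.11, 0.92, 1.53 and 0.78 FPKM. In both, the BPA values were the lowest and female vehicle the highest. Ifitm1 was at 0.75, 1.70, 1.32 and 1.32 FPKM. Isg15, a ubiquitin-like modifier, was at 0.95, 1.73, 1.53 and 0.38 FPKM, and these values stand for 5, 9, 8 and 2 fragments. The other 16 effectors did not reach the minimum. Ifit2 lay between 0.57 and 0.75 FPKM, Gbp5 between 0.54 and 0.84, Oas1b between 0.20 and 0.87, and Mx1 between 0.36 and 0.44, while Ifit1 was at 0.16 FPKM or less.

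For peptide supply and loading, B2m stood for 638, 646, 745 and 767 fragments, so females were above males and the treatments within a sex lay within counting error, with ratios of 1.01 (0.908 to 1.13) in males and 1.02 (0.918 to 1.13) in females. Psmb10 was at 11.83, 11.54, 9.01 and 9.42 FPKM, with both females below both males. Tap1 (gene ID 24811) was at 1.93, 1.97, 1.80 and 1.60 FPKM and Tap2 at 1.70, 1.47, 1.35 and 0.72 FPKM. Psmb9 (gene ID 24967), the neighbour of Tap1, was at 1.47, 2.55, 2.44 and 0.81 FPKM, from 11, 19, 18 and 6 fragments. Tapbp (gene ID 25217) was at 2.30, 0.89, 0.40 and 2.12 FPKM, from 31, 12, 5 and 28 fragments. In both of these genes the male and female differences pointed in opposite directions. Psmb8 was at 0.34 to 0.45 FPKM. The induced proteasome subunits were a small part of the pairs they form with the constitutive subunits they replace: Psmb8 was 0.237 to 0.288% of its sum with Psmb5, Psmb9 was 2.56, 4.07, 3.75 and 1.22% of its sum with Psmb6, and Psmb10 was 6.86, 6.41, 4.81 and 4.42% of its sum with Psmb7.

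Of the class I heavy chains, RT1-CE16 (gene ID 414819) was by far the highest at 11.70, 10.41, 10.92 and 10.47 FPKM, which was 35.3, 30.5, 34.5 and 38.7% of the class I sum. Those sums were 33.11, 34.1, 31.69 and 27.06 FPKM, over 29 rows of which 21 to 23 were above the lowest value in each library. The classical gene RT1-A was at 3.25, 3.36, 2.22 and 1.95 FPKM, RT1-A2 at 2.32, 2.11, 1.56 and 1.40 FPKM and RT1-A1 at 1.32, 1.64, 0.64 and 1.13 FPKM, each lower in both females than in both males. RT1-A3 (gene ID 309627) was at 2.60, 1.04, 1.73 and 1.24 FPKM, with both BPA values below both vehicle values. Together the RT1-A rows held 9.49, 8.15, 6.15 and 5.72 FPKM. Of the nonclassical chains, RT1-N3 was at 1.66, 2.95, 2.09 and 2.0 FPKM with male BPA on top, RT1-M3-1 at 1.89, 2.35, 1.19 and 1.81 FPKM, and RT1-T24-4 at 1.09, 1.18, 1.81 and 0.98 FPKM with female vehicle on top. RT1-S3 at 1.21, 1.38, 1.63 and 0.87 FPKM and RT1-CE14 at 1.22, 1.37, 1.41 and 0.87 FPKM were both lowest in female BPA. Class I genes are near copies of each other and differ between strains, so how the counting split their reads is uncertain, and the level of a single RT1 row is less certain than the class I sum. RT1-CE5 was listed at 0.01 FPKM in male vehicle and at 1.08, 1.41 and 1.03 FPKM in the other libraries. B2m, a single gene, stood at 1.22, 1.2, 1.52 and 1.81 times the class I sum.

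Class II presentation, the business of professional antigen presenting cells, was represented by its peptide editors and hardly at all by its surface chains. RT1-DMa, a chain of the editor that loads peptide, was at 6.80, 7.27, 7.79 and 5.88 FPKM, its partner RT1-DMb at 2.43, 3.16, 2.29 and 2.09 FPKM, and RT1-DOb, of the molecule that restrains that editor, at 1.80, 1.21, 2.58 and 2.12 FPKM. The surface chains RT1-Ba, RT1-Bb, RT1-Da, RT1-Db1 and RT1-Db2 stayed at or under 0.75 FPKM. The invariant chain Cd74 was at 0.10, 0.20, 0.40 and 0.10 FPKM, and Ciita, the switch for class II transcription and no member, at 0.05 and 0.07 FPKM in males and not listed for females.

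BPA and vehicle were first compared over both sexes, 2 libraries against 2, with limma on log2(FPKM + 1) over all 13542 rows. The libraries of a treatment differ in sex, so the spread behind this test includes the difference between males and females. No row passed at a Benjamini-Hochberg adjusted p under 0.05, which is 0% of rows, and so no member did. At an unadjusted p under 0.05 the fit held 637 rows, of which 421 were lower under BPA (3.11% of rows) and 216 higher (1.6%). Of the 38 members tested, 2 were among the lower rows and none among the higher. These were Stat5b, with a difference of -0.45 ± 0.165 (SE, limma adjusted p = 0.973), and Stat2, with -0.39 ± 0.144 (limma adjusted p = 0.973). RT1-A3 had the most negative estimate at -0.55 ± 0.255, and the largest positive ones were Irf9 at 0.32 ± 0.415, Ifitm1 at 0.31 ± 0.275 and RT1-M3-1 at 0.29 ± 0.255. Without the male vehicle, the male BPA or the female BPA library no member had an unadjusted p under 0.05, and without the female vehicle library 3 did (Stat5b, Irf9 and RT1-A3). With sex as a covariate the lowest adjusted p among members was 0.495, for Stat5b, and the same pair stood under an unadjusted 0.05.

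Separation of the libraries gave a like picture. Both BPA values lay above both vehicle values in 1 of 38 members (2.63%, Ifnar1) against 13.8% of all rows tested, and below them in 7 of 38 (18.4%) against 19.9%. Stat2, Stat5b, Gbp2, Bst2, RT1-A3 and RT1-CE16 were among the 7. The share of members below is near that of all rows, so it is no result about these genes. With 2 libraries against 2, an exact two-sided permutation test of a single gene cannot give a p below 0.333.

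Within males, members lay on both sides of 0. The difference was above 0 in 23 of 38 members and below in 15, with a median of 0.03 against -0.002 over all rows tested. A difference of 0.5 or more was reached upward by 4 members (10.5%), against 3.34% of all rows: Irf9 (0.71), Ifitm1 (0.63), RT1-N3 (0.57) and Psmb9 (0.52). Downward it was reached by 2 members (5.26%), against 3.86% of all rows: RT1-A3 (-0.82) and Tapbp (-0.80). The next lowest was Stat5b at -0.46. All 6 lay under 5 FPKM, a range that held 25 members, of which 16% were past 0.5 upward and 8% downward. Among rows with a gene ID at that level 3.68% were past 0.5 upward and 6.04% downward. The ratio for Irf9 was 2.51 with a counting interval of 1.16 to 5.85, and for RT1-N3 it was 1.77 (1.07 to 2.99). For Ifitm1 and Psmb9 the interval held 1, from 0.635 to 10.1 and from 0.787 to 4.05. For RT1-A3 it was 0.413 (0.205 to 0.790) and for Tapbp 0.388 (0.181 to 0.777). Mx2 and Irf2, though short of 0.5, also had intervals below 1, from 0.436 to 0.942 and from 0.433 to 0.960. Choroid plexus markers were 266.08 FPKM in male vehicle and 706.81 FPKM in male BPA (9.62 and 17.3 FPKM without Ttr), and microglial markers 57.51 and 66.9 FPKM, and their part in these differences was not tested.

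Within females, more members were lower under BPA than higher. At 1 to 5 FPKM the median of members was near that of other genes of that level. The 13 members with a mean of at least 5 FPKM had a median difference of -0.132. No median over all rows of that higher level was available. The difference was below 0 in 27 of 38 members, above in 10 and at 0 in Ifitm1, with a median of -0.13 against -0.04 over all rows. Past 0.5 stood 1 member upward (2.63%, against 3.18% of all rows), Tapbp at 1.16, followed by RT1-A1 at 0.38 and RT1-M3-1 at 0.36. Downward stood 7 members (18.4%, against 6.79%), among them Psmb9 (-0.93), Isg15 (-0.87), Stat6 (-0.83), Bst2 (-0.55), Gbp2 (-0.51) and RT1-T24-4 (-0.51). Among the 2502 rows with a gene ID and a mean of 1 to 5 FPKM the median was -0.15, with 2.4% past 0.5 upward and 12.7% downward, and among the 25 members at that level it was -0.13, with 1 member upward (4%) and 6 downward (24%). After quantile normalization the median of all members was -0.006, and 1 member was past 0.5 upward and 3 downward. Centring each library on its own median gave the same counts and a median of -0.08.

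Counting intervals of the female ratio excluded 1 in 10 members, 2 above (Ifnar1 and Tapbp) and 8 below. The share of all rows tested with such an interval was not computed, so this count cannot be set against a general rate. For Tapbp the ratio was 5.53 (2.11 to 18.4), for Psmb9 0.331 (0.108 to 0.871), for Stat6 0.404 (0.243 to 0.653) and for Gbp2 0.509 (0.260 to 0.959). The interval of Isg15, from 0.0258 to 1.25, held 1. By role, the Stat factors had a female median of -0.44 and the induced effectors -0.43, and these were -0.35 and -0.39 after quantile normalization. For class I (-0.11), Irf factors (-0.08) and peptide supply (-0.04) the sign of the median turned after that normalization, to 0.01, 0.06 and 0.02. The female vehicle library, with its higher meningeal (140.1 against 55.61 FPKM in female BPA) and border macrophage markers (12.1 against 5.82 FPKM), is the reference for all of these differences. All 7 meningeal markers were lower in female BPA by more than 0.5, with a median of -1.25, and endothelial and pericyte markers summed to 150.07 and 121.26 FPKM. Their part in the lower Stat, effector and class II values was not tested.

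**Figure D2:**
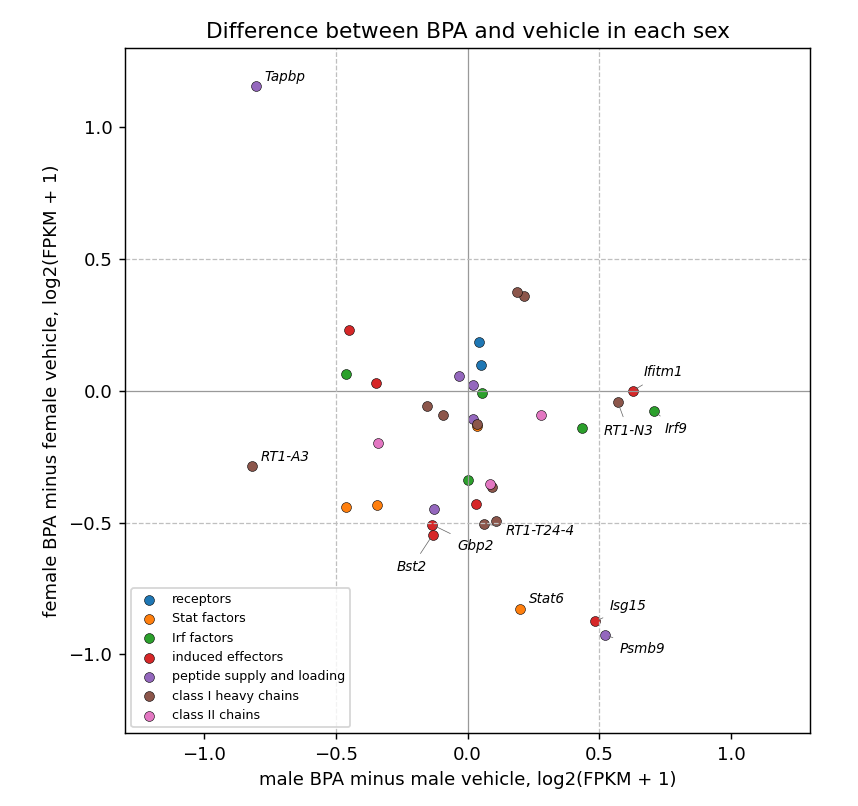
Each point is 1 of 37 members tested, placed by its difference between BPA and vehicle in males (x axis) and in females (y axis) on log2(FPKM + 1), with dashed lines at 0.5 and colours for the roles. Tapbp (-0.80 and 1.16) and Psmb9 (0.52 and -0.93) lie in opposite corners, and no point is past 0.5 in the same direction in both sexes.

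Set side by side, the male and female differences shared no member past 0.5 in one direction, and 2 members were past it in opposite directions, Psmb9 and Tapbp. How many of all rows tested were past 0.5 in both sexes was not counted, so the pair is no result about these genes as a set. With 1 library for each sex and treatment the difference between the sexes could not be tested. The 4 Tapbp values stand for 5 to 31 fragments and the 4 Psmb9 values for 6 to 19, and the male interval of Psmb9 holds 1.

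**Figure D3:**
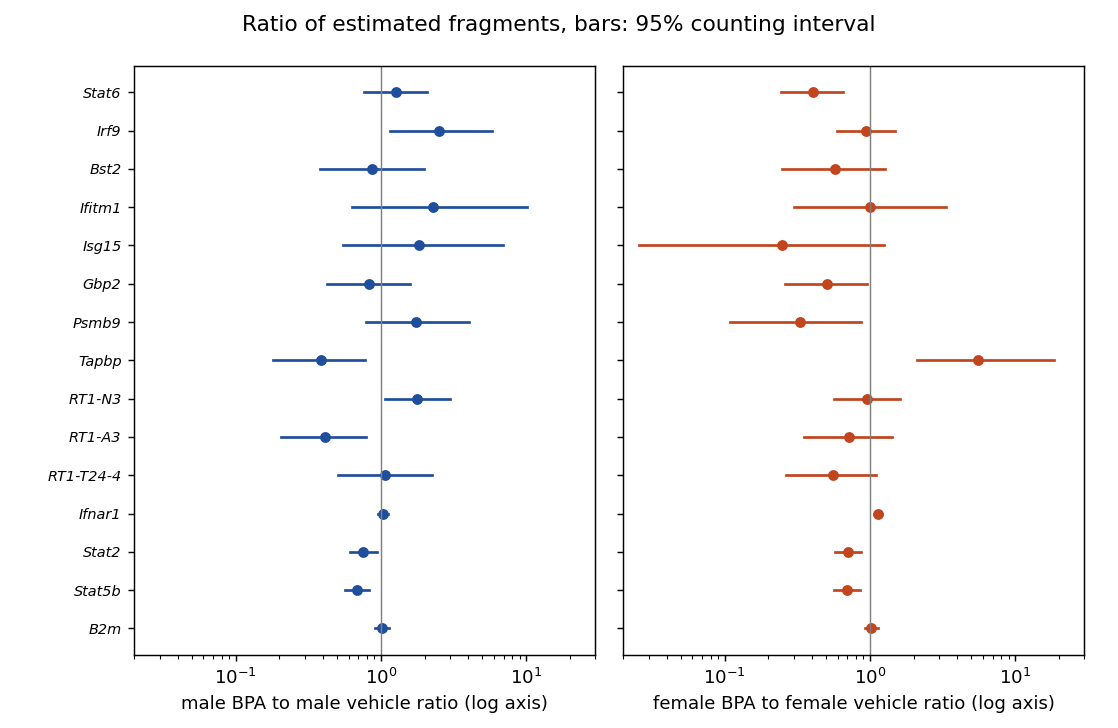
Points are the ratio of estimated fragments per unit of depth, BPA to vehicle, in males (left) and females (right) on log axes, for members past 0.5 in a sex and for Ifnar1, Stat2, Stat5b and B2m, with bars for the 95% counting interval. Stat2 and Stat5b lie below 1 in both panels, and the bar of Isg15 in females spans 0.0258 to 1.25.

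Sums by role put these differences on the scale of the tissue. From vehicle to BPA the Stat factors summed to 37.35 and 33.49 FPKM in males and to 38.43 and 29.28 FPKM in females. The effectors summed to 35.15 and 33.28 FPKM in males and to 42.15 and 33.55 FPKM in females, where female vehicle stood above the other three libraries. Peptide supply summed to 60.09 and 59.88 FPKM and to 63.59 and 64.18 FPKM, and the receptors to 47.38 and 48.93 FPKM and to 49.06 and 55.17 FPKM. The Irf factors were between 22.92 and 27.35 FPKM and the class II chains between 10.81 and 14.21 FPKM, both with female vehicle highest and female BPA lowest.

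**Figure D4:**
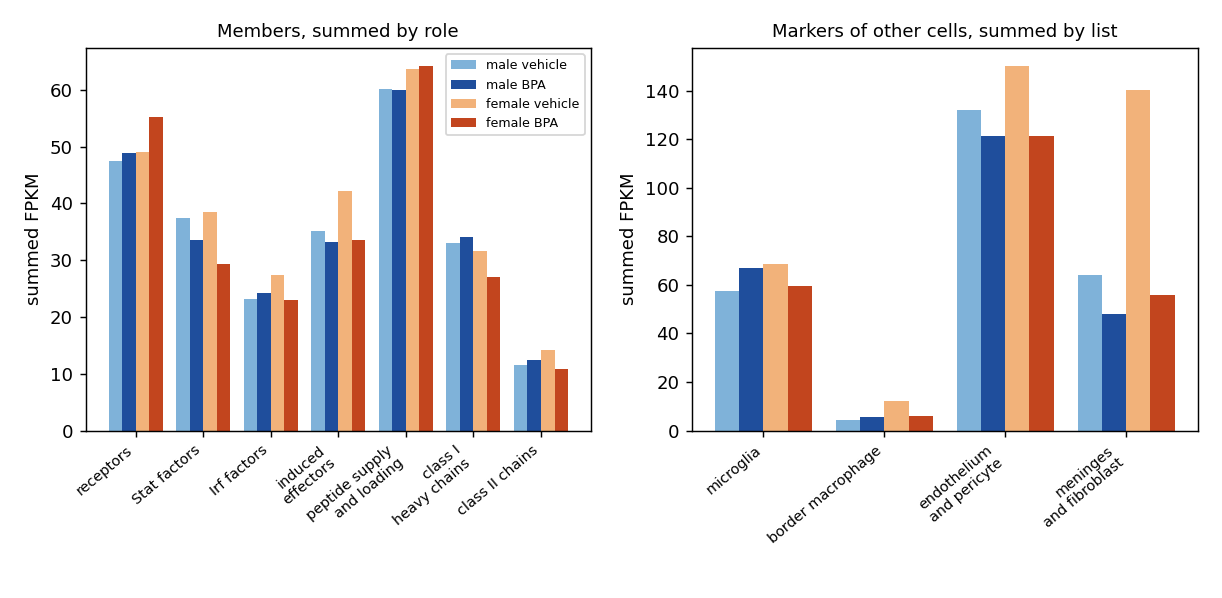
Bars are FPKM summed over the members of each role (left) and over marker lists of other cells (right), 1 bar for each library, with axes from 0. Female vehicle is the highest library for Stat factors, Irf factors, effectors and class II chains, and also for the meningeal markers at 140.1 FPKM.

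Females and males were compared in the same 4 libraries, so this comparison is not independent of the one by treatment. In limma, 1 row passed the adjusted p of 0.05 (0.00738%) and no member did, with a lowest adjusted p among members of 0.359. At an unadjusted p under 0.05, 526 rows were higher in females (3.88%) and 916 lower (6.76%), and of the 38 members 2 were higher and 2 lower. The higher ones were B2m, by 0.25 ± 0.0768 (SE), and Irf9, by 0.83 ± 0.290. The lower ones were Psmb10, at -0.31 ± 0.119, and RT1-A, at -0.48 ± 0.198. Next in size were RT1-DOb (0.43) and Mx2 (0.32) on the higher side and Irf8 (-0.44) and RT1-A1 (-0.41) on the lower side. Both female values lay above both male values in 5 of 38 members (13.2%, against 19.8% of all rows) and below them in 10 of 38 (26.3%, against 22.5%). The 10 were RT1-A, RT1-A1, RT1-A2, RT1-M3-1, Tap1, Tap2, Psmb10, Irf8, Stat3 and RT1-DMb, and the share is near that of all rows. Choroid plexus markers also split by sex, with sums of 266.08 and 706.81 FPKM in males and 9.49 and 45.63 FPKM in females. Without Ttr these were 9.62 and 17.3 FPKM in males and 5.53 and 3.24 FPKM in females. The part of these markers in the differences between the sexes was not tested. With treatment as a covariate 55 rows passed the adjusted p and still no member, with a lowest adjusted p of 0.212, and 3 members in place of 4 stood under an unadjusted 0.05, RT1-A no longer among them.

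Other genes of these pathways were taken from a list of 84, of which 67 had a row and 42 were tested. None passed the adjusted p. At an unadjusted p under 0.05 none was higher and 2 were lower under BPA, Calr and Ifi35, the latter named after its values were seen. Calr, the chaperone calreticulin of the peptide loading complex and the highest of the list, was at 253.89, 192.91, 254.76 and 205.2 FPKM, a difference of -0.35 ± 0.0938 (SE, limma adjusted p = 0.973). Both BPA values lay below both vehicle values. Ifi35, an interferon-induced gene, was at 3.06, 0.88, 1.77 and 0.99 FPKM, a difference of -0.79 ± 0.275. The constitutive proteasome subunit Psmb7 was at 160.63, 168.59, 178.32 and 203.88 FPKM, the disulphide isomerase Pdia3 at 163.18, 154.46, 171.65 and 171.07 FPKM, and the constitutive subunit Psmb5 at 168.71, 163.93, 142.89 and 155.71 FPKM. No tested gene of the list was past 0.5 in the same direction in both sexes. The medians were -0.04 in males and -0.12 in females. The receptor kinases Jak1 (42.27, 37.87, 43.68 and 37.72 FPKM) and Jak2 (21.27, 24.53, 23.15 and 24.89 FPKM) and the second interferon gamma receptor chain Ifngr2 (19.98 to 21.6 FPKM) were present in every library, and no row was found for the interferons Ifnb1, Ifng or Ifna1.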

How the data were processed

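The tissue was hippocampus of Wistar pups on postnatal day 1, in 4 libraries of 3 pooled hippocampi. The authors deposited 1 table for each library, with FPKM values given to 2 decimals and the length of each gene model in bases. HISAT 0.1.6, Bowtie2 2.2.5, RSEM and the build rn6 are named in the submitters' processing notes, with no roles stated, and the strand setting of the counting is not given in the sources used here. The rows hold gene IDs and new gene models. Groups were taken from the sample titles.

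The tables were joined on row names, and rows listed in all 4 libraries with a mean of at least 1 FPKM were kept (13542 rows). Both sexes together, and females against males, were tested by lmFit and eBayes with trend (limma 3.58.1, R 4.3.3) on log2(FPKM + 1), without covariates, with Benjamini-Hochberg adjustment over all rows. A difference on this scale understates the change of genes of low level. Within a sex the difference of 2 libraries was described, with 0.5 as the limit. Values near whole fragments gave the depth (95.3 to 98.5% of low values within 0.15 of a whole number), and ratios of fragments have exact 95% binomial intervals that cover counting error only. Tested on simulated data for BPA against vehicle, with 13542 rows and 200 changed, the fit found 36.5% of them at a log2 size of 0.5, 91.5% at 1 and 100% at 2. It also called 4, 8 and 25 unchanged rows at these sizes. These shares belong to the simulated spread and are not the power of the real test. There, Ttr at 2.28 ± 1.91 (SE) and Col1a1 at -0.979 ± 0.231 each had a limma adjusted p of 0.973. Depths were recovered within 0.137%. Other steps used Python 3.11.15 (pandas 2.3.3, numpy 2.4.6, scipy 1.17.1), and figures were drawn with matplotlib 3.10.9.

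The members and all gene lists were chosen with earlier results of these data known. Values in all libraries are given for tested members, or, where a role holds more than 8, for the 8 of highest mean and those past 0.5 in a sex. The 3 largest differences each way are named for each comparison, and of other pathway genes the 4 of highest mean and those past 0.5 in one direction in both sexes. Alternatives were another scaling, filter, pseudocount, threshold or covariate, gene IDs alone, and leaving out each library. A comparison of class I proteins was not made, as no protein table was used here. Some genes of the lists, 1 of them a tested member, are counted but not reported here, so the figures of single genes show 37 members.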

Additional observations from a re-analysis of the deposited data

Results flagged for a closer look

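Psmb9 and Tapbp were singled out because their BPA and vehicle libraries lay in opposite order in males and females. For Psmb9, the induced proteasome subunit beside Tap1, the difference on log2(FPKM + 1) was 0.52 in males and -0.93 in females. For Tapbp, or tapasin, it was -0.80 in males and 1.16 in females. Each sex has 1 library for each treatment, so this difference between the sexes was not tested. How common such opposite differences are among all rows tested was not counted. The values rest on 6 to 19 fragments for Psmb9 and 5 to 31 for Tapbp.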

How the results depend on the processing

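No member passed an adjusted p of 0.05 in any alternative run for BPA against vehicle or for females against males. Over all rows, the calls for BPA against vehicle went from 0 to 2 with sex as a covariate, to 637 at an unadjusted p, and ranged from 0 to 3 when each library was left out, with 1 call without the male BPA library and 3 without the female vehicle library. At an unadjusted p, members went from 0 to 2 for treatment and from 0 to 4 for sex. The 6 members past 0.5 in males became 0 at a difference of 1, 0 at a mean of at least 5 FPKM and 12 with a pseudocount of 0.1 (6 higher and 6 lower). The 8 in females became 1 at a difference of 1, 1 at a mean of at least 5 FPKM, 4 after quantile normalization, 4 after centring and 14 with a pseudocount of 0.1 (3 higher and 11 lower). The fewer genes under the stricter filter come from its construction. For the others the cause was not tested. The female median moved from -0.129 to -0.006 after quantile normalization, and was -0.132 at a mean of at least 5 FPKM. The male median stayed between 0.001 and 0.041. Of 98 recomputed differences of 12 single genes, 93 kept their side of 0, 3 small ones crossed it (RT1-N3 and Irf9 in females after quantile normalization, RT1-N3 also after centring), and 2 left a value of 0 (Ifitm1 in females). Sums with new gene models of the same protein gave no value, since the match on protein names returned no model. The models matched to guanylate-binding protein 4, given below, were therefore not added to Gbp4. The Gbp4 row itself was at 0.18, 0.23, 0.18 and 0.09 FPKM.

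Depth limits what can be seen at low level: 25 of the 38 members tested lay between 1 and 5 FPKM, and 47 others were too low to test. With 1 pooled library per group, differences between pools of the same group are unknown. Near copies among RT1 genes limit what a single row can show.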

Other observations

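Gene models without a gene ID whose best protein match belongs to one of these families are outside the rule and are given as values only, in the order male vehicle, male BPA, female vehicle and female BPA. A pair of models matched to interferon-induced transmembrane protein 10 was at 6.1, 4.73, 6.95 and 5.36 FPKM and at 5.19, 5.8, 2.0 and 3.38 FPKM. Of the 3 models matched to guanylate-binding protein 4, the longest was at 1.72, 1.93, 2.57 and 1.43 FPKM, from 17, 19, 25 and 14 fragments. A model matched to an RT1 class I alpha chain was at 1.0, 1.52, 1.05 and 0.88 FPKM, which is in the range of the RT1 rows that carry a gene ID.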
